A study of Mus musculus with 6 samples.

Results

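The genes described here are the ligands and receptors of axon guidance: slits and Robo receptors, semaphorins with plexins and neuropilins, ephrins with Eph receptors, and netrins with their Unc5, neogenin and repulsive guidance molecule partners. They were taken by symbol from the deposited expression table, in which 67 of 15711 genes carried such a name. The table held 6 RNA sequencing libraries of cultured mouse tendon stem/progenitor cells, which are fibroblast-like cells grown from tendon. Labelled-positive libraries (3) came from flow-sorted cells of the Col1a1 lineage that carried Vldlr, the very low density lipoprotein receptor, and labelled-negative libraries (3) from sorted Col1a1-lineage cells without it. Every sample carries a Cre recombinase under a type I collagen promoter and a YFP reporter. The number printed after "Col1 alpha" in the genotype differs between samples, and these were taken as the same genotype since all 6 cell labels name Col1a1. Both populations were kept in serum-containing medium after the sort, so the RNA is that of cultured cells. The labels name no animals, pools or cultures, and p-values therefore measure only the spread between these libraries, which may be technical. Whether the groups also differ in donor or culture cannot be told apart from the sort.

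Guidance molecules were first studied as cues that steer growing axons, and they also act in vessels, immune cells and connective tissue. Slits are secreted proteins that bind Robo receptors. Secreted class 3 semaphorins mostly signal through a neuropilin, which binds the ligand, and a plexin, which carries the signal, while membrane-bound semaphorins mostly bind plexins directly. Ephrins are tethered to the cell surface and activate Eph receptor tyrosine kinases on a touching cell, and Ephs and ephrins can signal in both directions. Netrins are laminin-related secreted proteins that bind the Unc5 receptors, neogenin and Dcc. The last of these is not analysed here.

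Worked-out depth was 17280452 to 17718941 reads per library. The library size behind the deposited values was not this read total. It was 0.931 to 0.938 times the worked-out reads in labelled-positive and 1.073 to 1.078 times in labelled-negative libraries. Compared with scaling by total reads, the deposited values therefore stand higher in the labelled-positive libraries. The sort labels could not be checked with Vldlr. It was listed at 4.73, 3.97 and 3.704 RPKM (reads per kilobase of exon, relative to library size) in the labelled-positive libraries and at 0.961, 0.959 and 0.467 RPKM in the labelled-negative ones, but of the 15691 genes with a known exon length only Vldlr, in the labelled-negative libraries, was not at a whole number of reads, and it became whole there once 5 RPKM was added. With that amount added in the labelled-negative libraries alone, Vldlr averaged 4.13 RPKM in labelled-positive and 5.80 RPKM in labelled-negative libraries. All 14 tendon and fibroblast markers were detected and tested, of which 10 rose and 4 fell, beside 29.7% and 26.1% of all tested genes. Col1a1 was at 3027 ± 119 RPKM in labelled-positive and 1789 ± 86.2 RPKM in labelled-negative libraries (SD, n = 3 each). The tendon markers Scx and Tnmd averaged 15.4 and 6.88 RPKM in labelled-positive and 12.5 and 27.2 RPKM in labelled-negative libraries. Labelled-positive replicate 1 stood apart from the other 2 labelled-positive libraries, with a chi-square per gene of 14.7 and 12.5, against 2.35 between replicates 2 and 3 and 2.51 to 5.24 among the labelled-negative libraries.

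Markers of other cell types moved with the sort label. The deposited values covered 14 Schwann and neural crest, 16 endothelial, 13 pericyte and smooth muscle and 15 macrophage and leukocyte markers. Sums take all of these, tested or not. The counts that follow stand beside 29.7% of all 12116 tested genes that rose and 26.1% that fell. Of 12 tested Schwann and neural crest markers 10 rose and 1 fell. The summed level of the list was 381 to 410 RPKM in labelled-positive and 227 to 239 RPKM in labelled-negative libraries. Its largest part was Pmp22, which averaged 210 and 206 RPKM and did not pass. Sox10, which defines that lineage, was at 16.8 ± 1.70 RPKM in labelled-positive libraries and had 2 reads in all labelled-negative libraries together. Of 11 tested endothelial markers 10 rose and 1 fell, with a sum of 45.5 to 51.2 RPKM in labelled-positive and 25.2 to 26.4 RPKM in labelled-negative libraries. The largest part of that sum was Eng, which averaged 18.6 RPKM in labelled-positive and 16.4 RPKM in labelled-negative libraries. Cdh5, the cadherin of endothelial junctions, was at 5.07 ± 0.195 RPKM in labelled-positive libraries and had 0 reads in the labelled-negative ones. Of 10 tested pericyte and smooth muscle markers 7 rose and 2 fell, with a sum of 1100 to 1238 RPKM in labelled-positive and 330.1 to 360 RPKM in labelled-negative libraries. Most of that sum was Acta2, which averaged 703 RPKM in labelled-positive and 202 RPKM in labelled-negative libraries. Kcnj8 and Abcc9, which mark pericytes, instead had 1 and 7 reads over the labelled-positive group and 130 and 155 over the labelled-negative group. All 12 tested macrophage and leukocyte markers fell, with a sum of 28.1 to 35.8 RPKM in labelled-positive and 587 to 710 RPKM in labelled-negative libraries. Most of that sum was Lyz2, which averaged 27.4 RPKM in labelled-positive and 430 RPKM in labelled-negative libraries. Tyrobp had 0 reads in the labelled-positive libraries. Many of these markers passed the filter through the libraries of a single group and so had to differ, 7 of 12 in the Schwann list, 8 of 11 in the endothelial list, 2 of 10 in the mural list and 9 of 12 in the macrophage list, so these counts describe the lists and support nothing. Several guidance genes are also expressed by these cell types, and the part of those cells in the results that follow was not tested. In bulk RNA, fewer cells of a type and less RNA per cell cannot be told apart.

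Of the 67 guidance genes, 55 reached 1 RPKM in at least 3 libraries and were tested with limma on log2(RPKM + 1) together with all other such genes, and genes with an adjusted p under 0.05 are said to have risen or fallen in the labelled-positive libraries. In that comparison 23 guidance genes rose and 18 fell, and 14 did not pass. The 41 called genes are 74.5% of the 55, beside 55.9% of all 12116 tested genes, of which 29.7% rose and 26.1% fell. Among ligands, 12 of 29 rose and 11 fell, and among receptors 11 of 26 rose and 7 fell. The summed level of all 67 genes was 550.5 to 561 RPKM in labelled-positive and 551 to 592 RPKM in labelled-negative libraries. The median log2 fold change was 0.08 over the 55 genes and 0.02 over all tested genes. The groups did not overlap for 47 of the 55 genes, beside 62.9% of all tested genes. A test against a 1.5-fold change was passed by 7 guidance genes that rose and 6 that fell, 23.6% of the 55 beside 9.43% of all tested genes (4.43% higher, 5.00% lower). Separate groups, a call and a change past 1 on the log2 scale, up or down, were found together for 10 genes, 18.2% of the 55 beside 7.27% of all tested genes. These shares are a description, because 5 of the 55, Plxnb3, Sema4f, Sema5a, Sema6a and Epha5, passed the filter through the 3 libraries of a single group and so had to differ. Their calls are therefore no support, and no p-value is given for them. With libraries scaled by total reads, 19 guidance genes rose and 24 fell, beside 15.6% and 45.2% of all tested genes (60.8% together). Under that scaling the median gene shifted by -0.17 on the log2 scale. Without labelled-positive replicate 1, all 41 calls kept their direction and Ephb3 was also called, beside 64.8% of all tested genes called (33.9% higher, 31.0% lower).

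**Figure D1:**
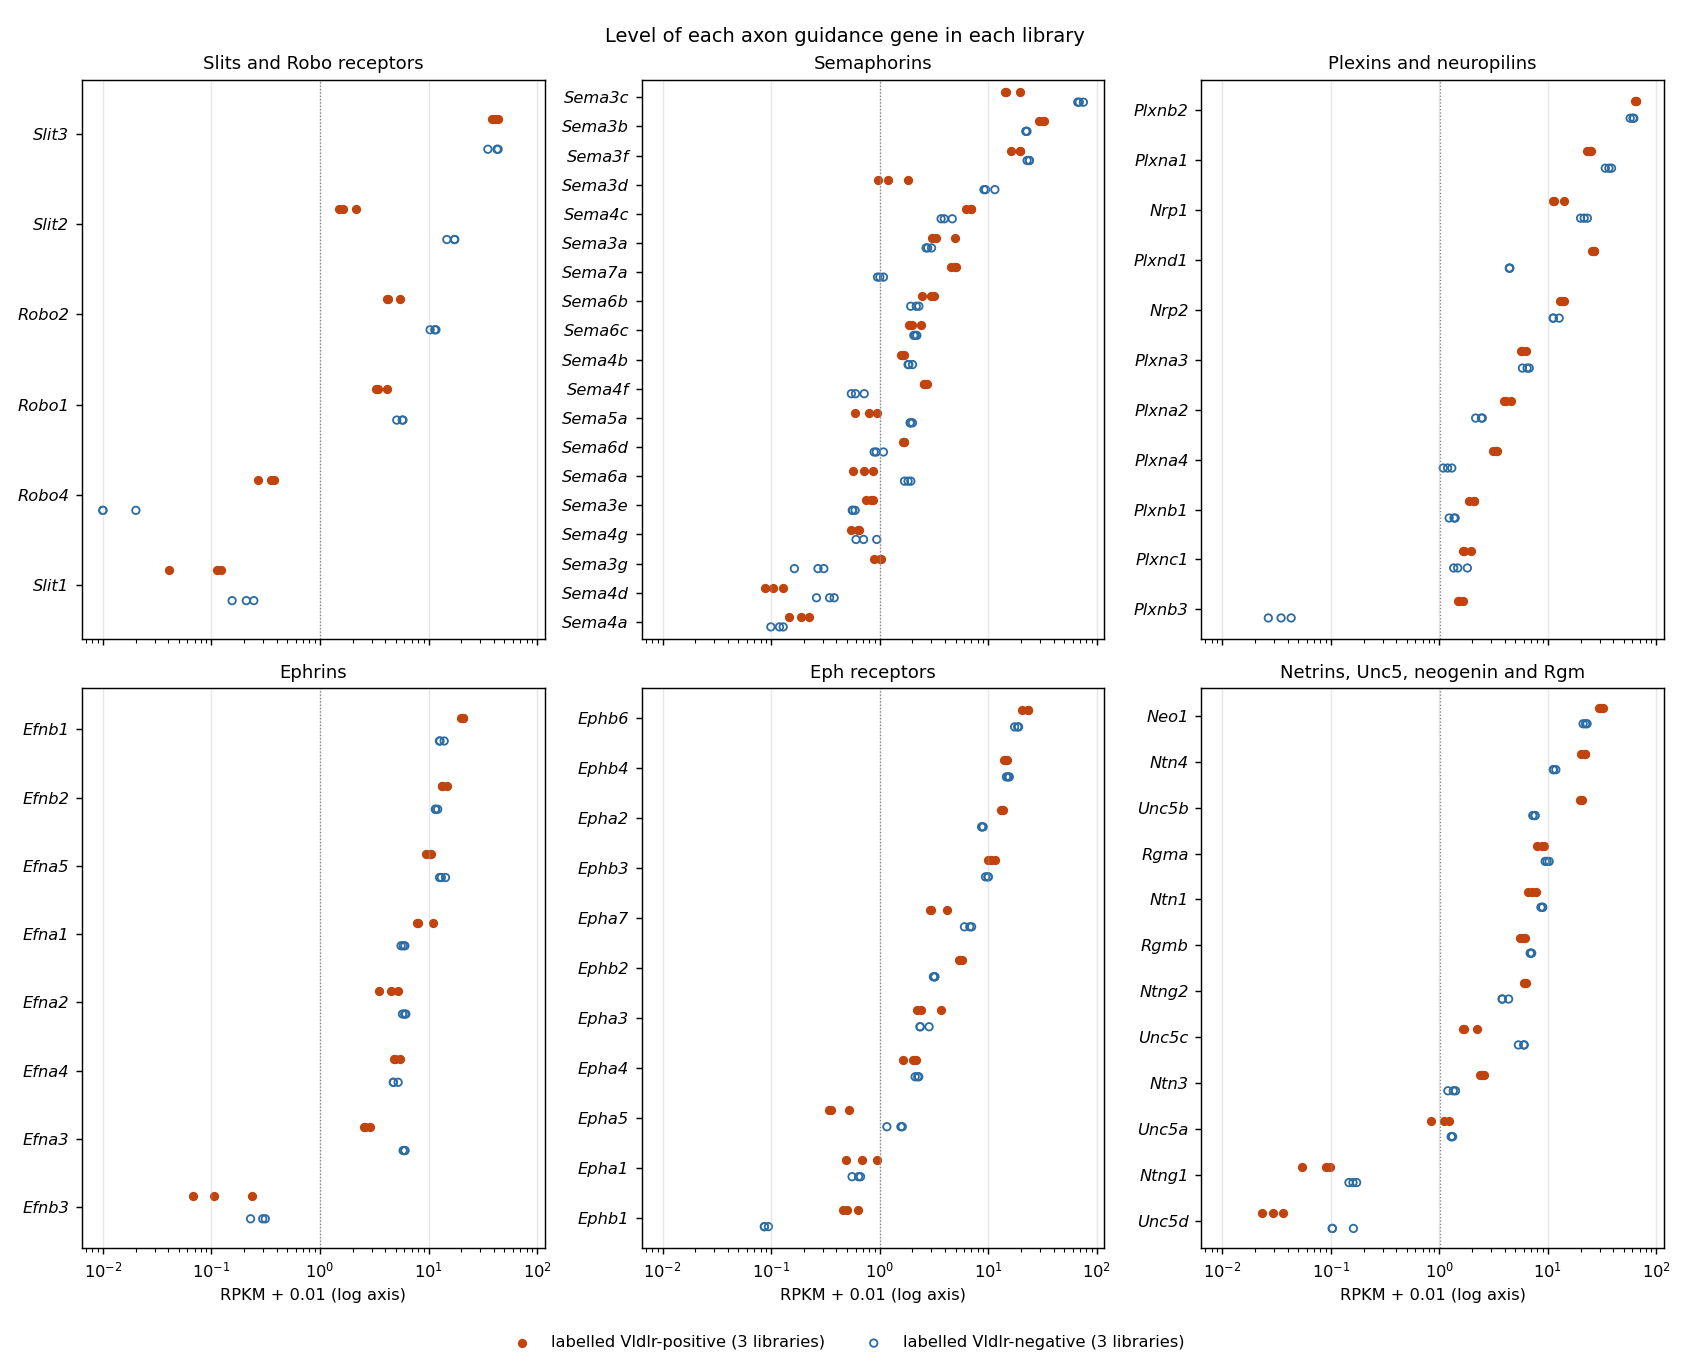
Level of each of the 67 guidance genes in every library, in RPKM + 0.01 on a log axis, by family; filled points are the 3 labelled-positive libraries, open points the 3 labelled-negative ones, and the dotted line marks 1 RPKM. Slit2, Sema3c and Sema3d lie well to the left in the labelled-positive libraries and Plxnd1 and Plxnb3 well to the right, while the values of Slit3, from 35.2 to 43.7 RPKM, overlap.

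The promoters of Slit2, Sema3d, Plxnd1 and Sema7a are shown because these genes had the 2 largest falls and the 2 largest rises on the log2(RPKM + 1) scale. With a pseudocount of 0.1 RPKM the largest rise was instead that of Plxnb3, at 3.71 beside 2.55 for Plxnd1 and 2.16 for Sema7a. Each is the stretch from 250 bases before to 50 bases after the RefSeq transcription start, on GRCm38.p6, written 5′ to 3′ on the gene's strand: chr5:47982905-47983204 on the plus strand for Slit2, chr5:12382916-12383215 on the plus strand for Sema3d, chr6:115994956-115995255 on the minus strand for Plxnd1 and chr9:57939862-57940161 on the plus strand for Sema7a. Capitals mark matches to CANNTG, the E-box bound by basic helix-loop-helix factors, which reads as the same pattern on both strands.
Slit2: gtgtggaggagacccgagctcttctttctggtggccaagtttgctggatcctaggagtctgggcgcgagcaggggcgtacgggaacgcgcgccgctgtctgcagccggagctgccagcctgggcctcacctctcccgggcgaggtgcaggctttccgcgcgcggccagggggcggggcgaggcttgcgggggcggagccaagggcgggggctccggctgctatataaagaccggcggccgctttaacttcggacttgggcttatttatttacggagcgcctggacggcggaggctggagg
Sema3d: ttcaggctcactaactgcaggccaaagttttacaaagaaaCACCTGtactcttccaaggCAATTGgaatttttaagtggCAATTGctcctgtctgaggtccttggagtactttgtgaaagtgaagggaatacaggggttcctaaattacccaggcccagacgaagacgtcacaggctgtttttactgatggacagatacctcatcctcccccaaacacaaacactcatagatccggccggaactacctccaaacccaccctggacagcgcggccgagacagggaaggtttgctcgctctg
Plxnd1: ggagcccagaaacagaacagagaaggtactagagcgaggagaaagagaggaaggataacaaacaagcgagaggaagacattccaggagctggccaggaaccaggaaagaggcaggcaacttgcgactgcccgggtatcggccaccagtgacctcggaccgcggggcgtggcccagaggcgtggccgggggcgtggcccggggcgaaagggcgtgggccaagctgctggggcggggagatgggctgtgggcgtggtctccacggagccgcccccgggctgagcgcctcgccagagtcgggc
Sema7a: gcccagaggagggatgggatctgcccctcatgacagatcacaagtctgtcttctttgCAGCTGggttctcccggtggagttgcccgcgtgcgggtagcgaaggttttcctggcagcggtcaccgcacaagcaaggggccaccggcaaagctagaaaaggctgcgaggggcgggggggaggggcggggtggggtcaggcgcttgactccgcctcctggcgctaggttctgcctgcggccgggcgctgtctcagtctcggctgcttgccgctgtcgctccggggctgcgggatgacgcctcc
The E-box pattern matched 3 times in the Sema3d window, 1 time in the Sema7a window and 0 times in those of Slit2 and Plxnd1, while 72.3% of all 32851 RefSeq promoter windows of that length held at least 1 match. TATAAA, searched on both strands, was present in the Slit2 window and in 13.6% of all windows. GGAATG, the core of the site that TEAD factors bind, was present on either strand in the Plxnd1 window and in 14.7% of all windows. The windows of Slit2, Plxnd1 and Sema7a held 30, 23 and 23 CpG dinucleotides at 68%, 67% and 67.3% G and C. The Sema3d window held 8 at 49.7%, close to the medians of all windows, 7 and 52.7%. These matches describe letters and not binding. 57 of the 67 genes had an entry in the promoter table.

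Slit and Robo genes were lower in the labelled-positive libraries where they differed, except for Robo4. Slit2 (chromosome 5, 47983138 to 48307733, GRCm38), a secreted repellent, was at 2.15, 1.502 and 1.63 RPKM in the labelled-positive libraries, against 17.5, 17.3 and 14.7 RPKM in the labelled-negative ones. Every labelled-positive value lay far below every labelled-negative value, and Slit2 was 9.37-fold lower (limma log2 fold change -2.67, SE 0.10, adjusted p = 2.1e-07). Slit3 (chromosome 11, 35121224 to 35708507), a paralog of Slit2, was at 43.6, 38.5 and 41.0 RPKM in labelled-positive and 42.8, 43.7 and 35.2 RPKM in labelled-negative libraries, with overlapping groups (limma log2 fold change 0.02, SE 0.09, adjusted p = 0.86). The Slit3 difference was negative without labelled-positive replicate 1 (-0.02), without labelled-negative replicate 3 (-0.076) and with total-read scaling (-0.18). Slit3 made up 95.1% to 96.2% of the summed slit RPKM in labelled-positive libraries and 70.2% to 71.4% in labelled-negative ones, and Slit2 made up 3.75% to 4.69% and 28.2% to 29.4%.

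Both tested slit receptors fell, as did 26.1% of all tested genes. Robo2 was at 5.47, 4.18 and 4.14 RPKM in labelled-positive libraries and at 11.4, 11.7 and 10.3 RPKM in labelled-negative ones, 2.42-fold lower (limma log2 fold change -1.12, SE 0.10, adjusted p = 2.6e-05). Robo1, which lies next to Robo2 on chromosome 16 with no other protein-coding gene in the 845.7 kb between them, was at 3.62 ± 0.450 RPKM in labelled-positive and 5.54 ± 0.392 RPKM in labelled-negative libraries (limma log2 fold change -0.50, SE 0.08, adjusted p = 0.0013). Neither gene's groups overlapped. Labelled-positive replicate 1 was the highest of its group for Slit2, Robo1 and Robo2, nearest to the labelled-negative libraries. Robo4, the Robo receptor of endothelial cells, was under the filter and not tested. Robo4 had 30, 32 and 23 reads in the labelled-positive libraries and 0, 1 and 0 in the labelled-negative ones. The ratio of 85 to 1 reads, corrected for the library sizes behind the RPKM values, was 95.7. Its exact 95% interval of 16.7 to 3822 covers counting error only. The summed level of the endothelial markers was higher in the same libraries. Slit1, also under the filter, had 24 reads in all labelled-positive and 64 in all labelled-negative libraries.

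Among the secreted class 3 semaphorins the summed level was 72.2 to 74.3 RPKM in labelled-positive libraries and 125 to 137 RPKM in labelled-negative ones, and its make-up differed. Of the 5 tested genes, 3 fell, 1 rose and 1 did not pass, beside 55.9% called over all tested genes. Sema3c (chromosome 5, 17574281 to 17730268), known for guiding neural crest and vascular cells in the developing heart, was the most abundant semaphorin of the labelled-negative libraries. It was at 19.8, 14.6 and 14.3 RPKM in labelled-positive libraries, against 75.4, 69.0 and 66.8 RPKM in labelled-negative ones. Sema3c was 4.33-fold lower, with no overlap (limma log2 fold change -2.06, SE 0.12, adjusted p = 1.8e-06). Sema3d was at 1.797, 0.946 and 1.18 RPKM in labelled-positive libraries, against 11.5, 9.45 and 9.14 RPKM in labelled-negative ones. That is 7.68-fold lower (limma log2 fold change -2.27, SE 0.14, adjusted p = 2.9e-06), and for both genes labelled-positive replicate 1 was again the highest of its group.

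Sema3b, a secreted semaphorin known as a target of p53, rose to 29.6, 32.4 and 32.0 RPKM in labelled-positive libraries, against 22.7, 22.4 and 22.2 RPKM in labelled-negative ones. The groups were separate but the change was only 1.40-fold (limma log2 fold change 0.46, SE 0.05, adjusted p = 1.6e-04). Sema3f, which binds neuropilin-2, fell to 16.3, 19.6 and 19.7 RPKM in labelled-positive libraries, against 23.9, 22.8 and 23.9 RPKM in labelled-negative ones (1.27-fold lower, limma log2 fold change -0.33, SE 0.08, adjusted p = 0.0061). Sema3b took 39.8% to 44.8% of the class 3 RPKM in labelled-positive and 16.6% to 17.7% in labelled-negative libraries, and Sema3c took 19.8% to 26.6% in labelled-positive and 53.3% to 54.9% in labelled-negative libraries. Sema3a, the best known axon repellent of the class, was at 4.91, 3.05 and 3.29 RPKM in labelled-positive and 3.00, 2.76 and 2.67 RPKM in labelled-negative libraries and did not pass (limma log2 fold change 0.30, SE 0.13, adjusted p = 0.087). Its difference rested largely on labelled-positive replicate 1, without which the log2 fold change was 0.13, and Sema3a was called without labelled-positive replicate 2 (limma adjusted p = 0.042). Sema3e, the class 3 semaphorin that binds plexin D1 without a neuropilin, and Sema3g were under the filter. They had 372 and 216 reads in all labelled-positive and 292 and 60 in all labelled-negative libraries.

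Membrane-bound semaphorins of classes 4 to 7 were at lower levels. Of 9 tested genes 5 rose and 2 fell, beside 29.7% and 26.1% of all tested genes. Sema4f among the rises and both falls, Sema5a and Sema6a, passed the filter through a single group and so had to differ. Sema7a, a semaphorin held by a lipid anchor that binds plexin C1 and integrins, was at 5.01, 4.57 and 4.95 RPKM in labelled-positive libraries, against 1.07, 0.993 and 0.944 RPKM in labelled-negative ones. It was 4.82-fold higher with wide separation (limma log2 fold change 1.54, SE 0.06, adjusted p = 3.3e-07). Sema4f, which passed the filter through the labelled-positive libraries alone, was at 2.53, 2.71 and 2.54 RPKM in labelled-positive libraries, against 0.710, 0.538 and 0.589 RPKM in labelled-negative ones, a ratio of means of 4.23. Sema4c, a ligand of plexin B2, rose to 6.69 ± 0.389 RPKM in labelled-positive libraries, against 4.08 ± 0.510 RPKM in labelled-negative ones. Sema6b and Sema6d also rose, with log2 fold changes of 0.30 and 0.44, and the rise of Sema6b was not called with total-read scaling (limma adjusted p = 0.17) or without labelled-positive replicate 2 or 3 or labelled-negative replicate 1 (at most 0.084). Sema5a, a ligand of plexin B3, fell to 0.769 ± 0.179 RPKM in labelled-positive libraries, against 1.93 ± 0.0517 RPKM in labelled-negative ones. Sema6a, a ligand of A-type plexins, fell to 0.712 ± 0.148 RPKM in labelled-positive libraries, against 1.81 ± 0.122 RPKM in labelled-negative ones. Sema4b and Sema6c did not pass, but Sema4b was called lower with total-read scaling (limma adjusted p = 0.0061). Of those under the filter, Sema4d, which leukocytes make, had 37 reads in all labelled-positive and 137 in all labelled-negative libraries. Macrophage markers were also higher in the labelled-negative libraries, and the part of such cells in the Sema4d reads was not tested. Sema4a and Sema4g had 47 and 257 reads over the labelled-positive group and 32 and 359 over the labelled-negative group.

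**Figure D2:**
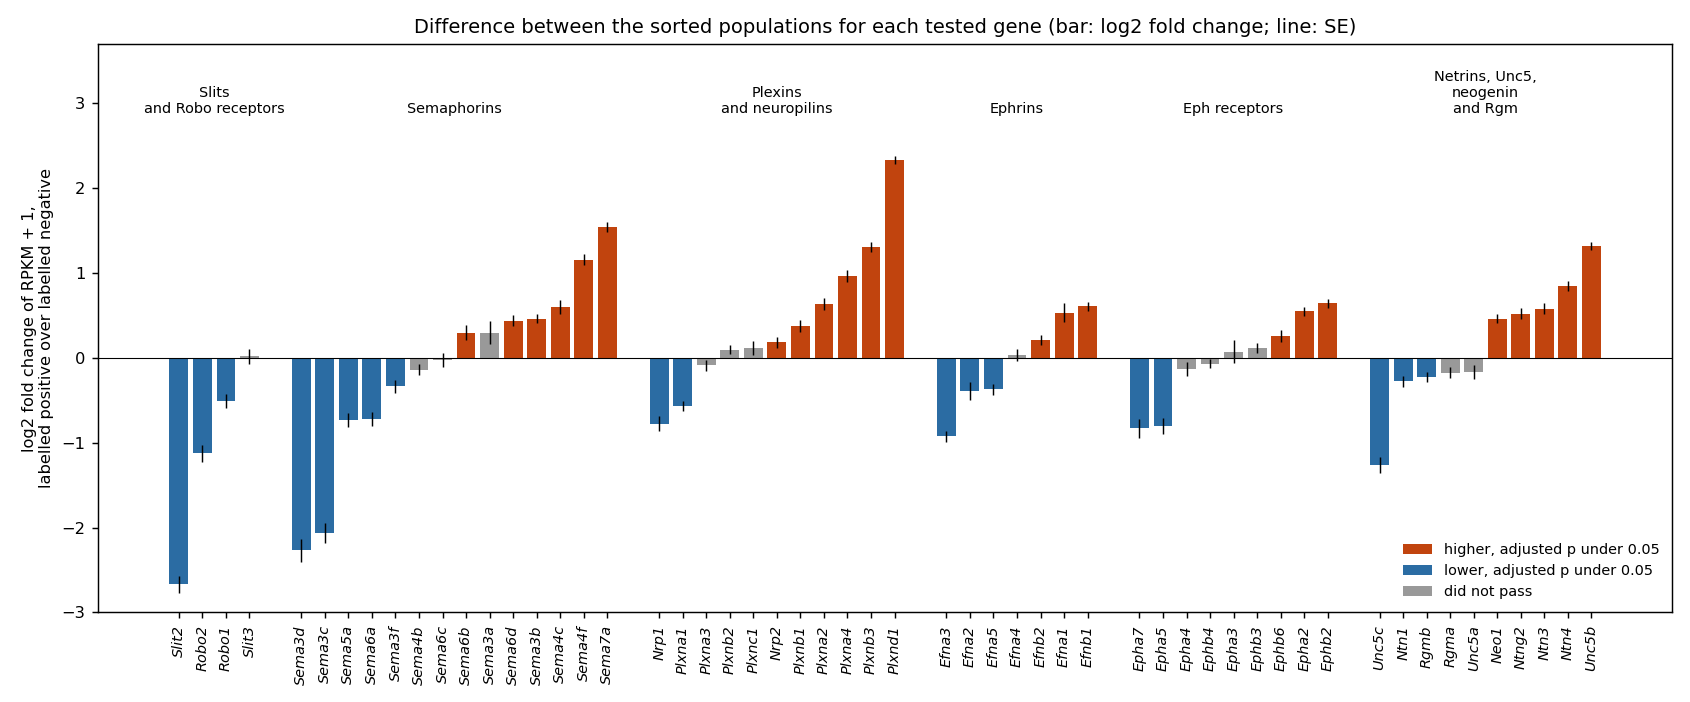
Log2 fold change of RPKM + 1, labelled-positive over labelled-negative libraries, of the 55 tested guidance genes by family, with SE. Red bars rose and blue bars fell at a limma adjusted p under 0.05, 23 and 18 genes (19 and 24 with total-read scaling), and grey bars did not pass; every family but that of slits and Robo receptors has genes of both colours.

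Plexins and neuropilins, the semaphorin receptors, were all tested. Of the 11 genes 6 rose and 2 fell, beside 29.7% and 26.1% of all tested genes. Plxnd1 (chromosome 6, 115954811 to 115995005), a plexin known from vessel patterning, was at 25.7, 26.7 and 26.7 RPKM in labelled-positive libraries, against 4.397, 4.42 and 4.44 RPKM in labelled-negative ones. It was 5.96-fold higher, far beyond the spread within either group (limma log2 fold change 2.34, SE 0.05, adjusted p = 9.8e-09). The summed level of the 16 endothelial markers in the table was higher in the same libraries, although Tek was at 0.496 RPKM in labelled-positive and 3.52 RPKM in labelled-negative libraries, and the part of such cells in the Plxnd1 result was not tested. Plxnb3 was at 1.47, 1.62 and 1.51 RPKM in labelled-positive libraries and near 0 in labelled-negative ones, with 495 reads in all labelled-positive against 9 in all labelled-negative libraries. The ratio of mean RPKM was 61.9, for a gene that passed the filter through the labelled-positive libraries alone. Of the Schwann and neural crest markers, Sox10 was higher in the same libraries, while S100b was at 4.50 RPKM in labelled-positive and 15.4 RPKM in labelled-negative libraries and Pmp22, the most abundant of the list, did not pass, and their part in the result was not tested. Plxna4, a partner of neuropilins, was at 3.26 ± 0.138 RPKM in labelled-positive and 1.18 ± 0.109 RPKM in labelled-negative libraries, 2.76-fold higher (limma log2 fold change 0.96, SE 0.07, adjusted p = 6.6e-06). Plxna2 and Plxnb1 rose 1.79-fold and 1.52-fold.

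The plexin of the highest level, Plxnb2, a receptor for class 4 semaphorins, was at 64.2, 63.1 and 65.0 RPKM in labelled-positive and 60.8, 61.9 and 57.3 RPKM in labelled-negative libraries. It did not pass (limma log2 fold change 0.09, SE 0.05, adjusted p = 0.16), and its difference was negative, -0.10, with total-read scaling. Plxna1, also a partner of neuropilins, fell to 24.4, 23.2 and 24.8 RPKM in labelled-positive libraries, against 36.5, 38.5 and 33.8 RPKM in labelled-negative ones (limma log2 fold change -0.57, SE 0.06, adjusted p = 1.1e-04), and 10.7% of its exon bases lie opposite another gene. Plxnd1 took 19.3% to 20.4% of the summed plexin RPKM in labelled-positive libraries and 3.74% to 4.14% in labelled-negative ones, and Plxna1 took 17.7% to 18.3% and 31.5% to 32.6%. In mean level Plxnd1 thus stood beside Plxna1 in labelled-positive libraries. In labelled-negative libraries it lay below Plxna3, at 6.32 ± 0.464 RPKM, which did not pass but was called lower with total-read scaling (limma adjusted p = 0.011). Plxnc1, a receptor for Sema7a, was at 1.75 ± 0.165 RPKM in labelled-positive and 1.54 ± 0.237 RPKM in labelled-negative libraries, with overlapping groups (limma adjusted p = 0.27).

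Nrp1, the neuropilin that also binds VEGF, fell to 14.0, 11.4 and 11.2 RPKM in labelled-positive libraries, against 21.6, 23.1 and 20.0 RPKM in labelled-negative ones. It was 1.77-fold lower without overlap (limma log2 fold change -0.78, SE 0.09, adjusted p = 1.6e-04). Nrp2 was at 13.4, 13.9 and 12.8 RPKM in labelled-positive and 11.2, 12.7 and 11.1 RPKM in labelled-negative libraries, and its small rise (limma log2 fold change 0.18, SE 0.06, adjusted p = 0.042) was lost and of the opposite sign with total-read scaling (-0.0046). It was also lost without labelled-positive replicate 2 or 3 or labelled-negative replicate 1 or 3, with limma adjusted p of at most 0.14. Nrp1 made up 45.0% to 51.0% of the neuropilin RPKM in labelled-positive libraries and 64.2% to 65.8% in labelled-negative ones.

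**Figure D3:**
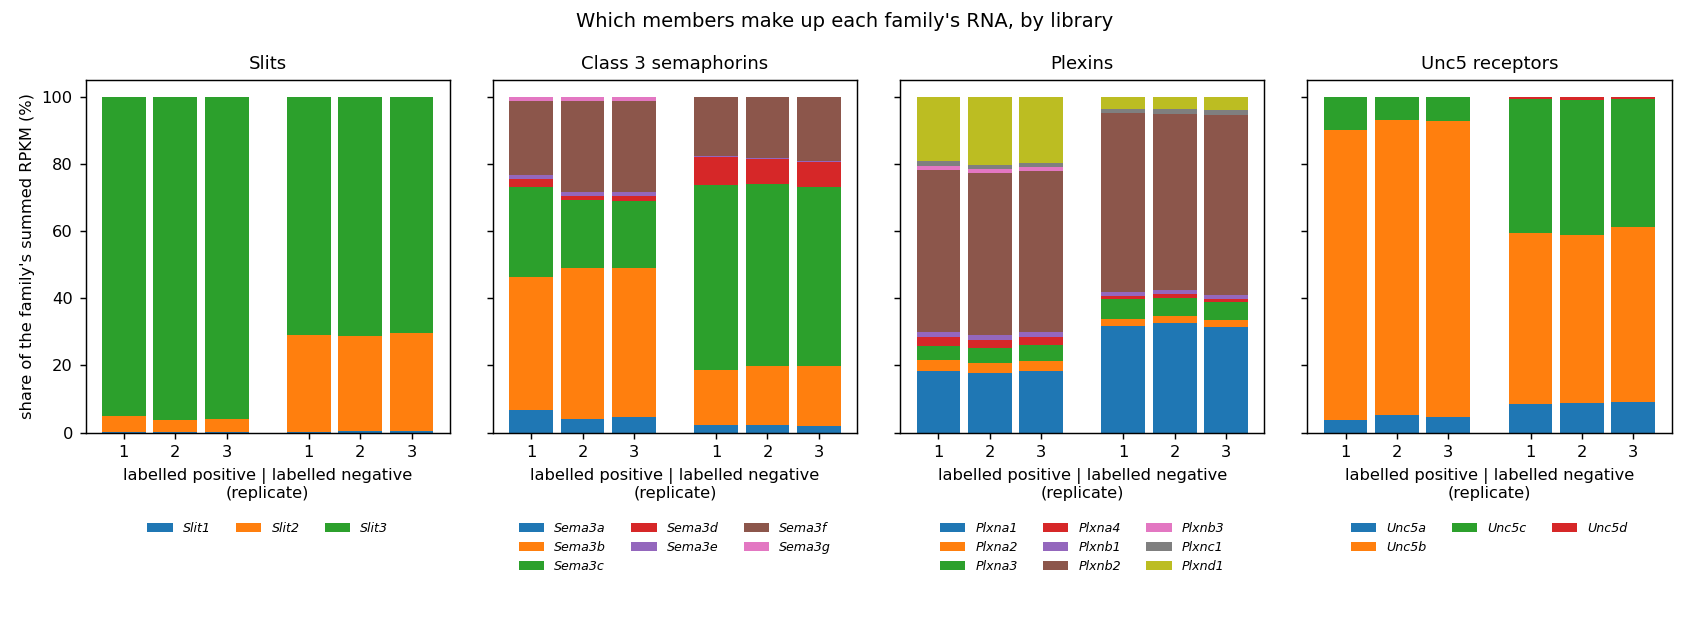
Share of each member in the summed RPKM of the slits, class 3 semaphorins, plexins and Unc5 receptors, in percent, with the 3 labelled-positive libraries left of the 3 labelled-negative ones. Slit2, Sema3c, Plxna1 and Unc5c take smaller shares in labelled-positive libraries, and Slit3, Sema3b, Plxnd1 and Unc5b larger ones; Plxnd1, for example, takes 19.3% to 20.4% and 3.74% to 4.14%.

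Netrins and their partners contained a pair of Unc5 receptors that moved in opposite directions. Unc5b (chromosome 10, 60762593 to 60831581), a netrin receptor known from vessel sprouting, was at 19.7, 20.7 and 20.1 RPKM in labelled-positive libraries, against 7.63, 7.55 and 7.24 RPKM in labelled-negative ones. It was 2.70-fold higher (limma log2 fold change 1.32, SE 0.05, adjusted p = 2.1e-07). Unc5c (chromosome 3, 141465216 to 141834924), its paralog, was at 2.22, 1.63 and 1.67 RPKM in labelled-positive libraries, against 5.97, 6.05 and 5.33 RPKM in labelled-negative ones, 3.15-fold lower (limma log2 fold change -1.26, SE 0.09, adjusted p = 9.2e-06). Neither gene's groups overlapped. Unc5b made up 86.5% to 87.9% of the Unc5 RPKM in labelled-positive libraries and 50.1% to 51.9% in labelled-negative ones. Unc5a, near 1 RPKM in every library, did not pass, but was called lower with total-read scaling (limma adjusted p = 0.018). Unc5d, under the filter, had 9 reads in all labelled-positive and 58 in all labelled-negative libraries.

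Of the netrin ligands, Ntn4, a netrin of basement membranes, rose to 21.8, 22.02 and 20.4 RPKM in labelled-positive libraries, against 11.8, 11.3 and 11.2 RPKM in labelled-negative ones (1.87-fold higher, limma log2 fold change 0.85, SE 0.05, adjusted p = 3.8e-06). Ntn1, the classical netrin, fell slightly, to 7.14 ± 0.605 RPKM in labelled-positive libraries, against 8.82 ± 0.180 RPKM in labelled-negative ones (limma log2 fold change -0.27, SE 0.07, adjusted p = 0.0083). Ntn3 rose 1.88-fold to 2.45 ± 0.102 RPKM. Ntng2, whose product is a netrin-like protein anchored to the membrane, rose 1.54-fold to 6.13 ± 0.181 RPKM, and 14.0% of its exon bases are shared with another gene on the same strand. Neo1, which encodes neogenin, a receptor for netrins and repulsive guidance molecules, rose to 32.3, 29.5 and 30.7 RPKM in labelled-positive libraries, against 22.2, 22.9 and 21.1 RPKM in labelled-negative ones (1.40-fold, limma log2 fold change 0.46, SE 0.06, adjusted p = 2.3e-04). Its ligand genes Rgma and Rgmb, which also act as co-receptors for bone morphogenetic proteins, were at 8.61 ± 0.636 and 5.83 ± 0.331 RPKM in labelled-positive and 9.83 ± 0.418 and 6.96 ± 0.113 RPKM in labelled-negative libraries. Rgmb fell (limma adjusted p = 0.012) and Rgma did not pass (limma adjusted p = 0.051), but was called lower without labelled-positive replicate 2 (0.046), with a filter at 5 RPKM (0.047), with voom on the reads (0.041) and with total-read scaling (0.0020). Ntng1 was under the filter, with 29 reads in all labelled-positive and 69 in all labelled-negative libraries.

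Of 7 tested ephrin genes 3 rose and 3 fell, beside 29.7% and 26.1% of all tested genes. The B ephrins, which span the membrane and bind mainly EphB receptors, summed to 33.7 to 35.5 RPKM in labelled-positive and 24.5 to 25.8 RPKM in labelled-negative libraries. Efnb1, whose loss disturbs skeletal patterning in mice, rose to 20.7, 20.6 and 20.1 RPKM in labelled-positive libraries, against 13.9, 12.8 and 12.6 RPKM in labelled-negative ones (1.56-fold, limma log2 fold change 0.61, SE 0.05, adjusted p = 3.4e-05). Efnb2, a marker of arterial endothelium that other cells also make, was at 14.8, 13.4 and 13.4 RPKM in labelled-positive and 11.6, 12.1 and 11.6 RPKM in labelled-negative libraries. Its rise (limma log2 fold change 0.22, SE 0.06, adjusted p = 0.013) was lost with total-read scaling (0.03) and without labelled-negative replicate 1 (limma adjusted p = 0.053). Efnb3, under the filter, had 20 reads in all labelled-positive and 48 in all labelled-negative libraries.

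The A ephrins, which are lipid-anchored and bind mainly EphA receptors, were divided. Of 5 genes 3 were lower, 1 was higher and 1 did not pass, beside 55.9% called over all tested genes. Efna3 fell to 2.90, 2.57 and 2.55 RPKM in labelled-positive libraries, against 5.82, 6.05 and 6.04 RPKM in labelled-negative ones (2.23-fold lower, limma log2 fold change -0.93, SE 0.06, adjusted p = 5.0e-06). It was the only ephrin past the test against a 1.5-fold change, and 14.1% of its exon bases lie opposite an antisense gene whose reads could not be told apart. Efna5, at 10.6, 10.3 and 9.47 RPKM in labelled-positive and 13.1, 14.3 and 12.6 RPKM in labelled-negative libraries, fell 1.32-fold (limma log2 fold change -0.37, SE 0.07, adjusted p = 0.0019). Efna2 fell 1.37-fold, a call lost without labelled-negative replicate 1 (limma adjusted p = 0.058). Efna1, which binds EphA2 and is induced by inflammatory signals, rose 1.54-fold, to between 7.84 and 11.03 RPKM in labelled-positive libraries, against 5.58 to 6.04 RPKM in labelled-negative ones (limma log2 fold change 0.53, SE 0.11, adjusted p = 0.0048). Labelled-positive replicate 2 was the highest.

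Of the 9 tested Eph receptors, 3 rose, 2 fell and 4 missed the threshold, a share called like the 55.9% of all tested genes, and 0 passed the test against a 1.5-fold change. Epha2, a receptor for ephrin A1, was at 13.1, 13.3 and 13.6 RPKM in labelled-positive libraries, against 8.74, 8.70 and 8.98 RPKM in labelled-negative ones (1.51-fold, limma log2 fold change 0.55, SE 0.05, adjusted p = 3.0e-05). Ephb2 rose 1.74-fold to 5.52 ± 0.154 RPKM in labelled-positive libraries, against 3.18 ± 0.0536 RPKM in labelled-negative ones. Ephb6, an Eph receptor without kinase activity and the most abundant of the family, was at 20.3, 23.3 and 23.1 RPKM in labelled-positive and 17.5, 19.0 and 18.7 RPKM in labelled-negative libraries. Its rise (limma log2 fold change 0.26, SE 0.07, adjusted p = 0.012) was lost with total-read scaling (0.06) and without labelled-negative replicate 1 (limma adjusted p = 0.055). Ephb4, the venous receptor for ephrin B2, was at 14.0, 14.9 and 14.5 RPKM in labelled-positive and 15.2, 15.6 and 14.7 RPKM in labelled-negative libraries and did not pass (limma log2 fold change -0.07, SE 0.05, adjusted p = 0.30), but was lower with total-read scaling (-0.26, limma adjusted p = 0.0031).

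Epha7 and Epha5 were the Eph receptors that fell. Epha7 was at 4.12, 2.88 and 2.93 RPKM in labelled-positive libraries, against 6.75, 7.02 and 6.03 RPKM in labelled-negative ones, with labelled-positive replicate 1 the highest of its group (limma log2 fold change -0.83, SE 0.11, adjusted p = 4.0e-04). Epha5 was at 0.397 ± 0.103 RPKM in labelled-positive and 1.44 ± 0.247 RPKM in labelled-negative libraries. It passed the filter through the labelled-negative libraries alone and so had to differ. Epha2 took 54.2% to 63.3% of the EphA RPKM in labelled-positive libraries and 38.5% to 42.2% in labelled-negative ones, and Epha7 took 13.3% to 16.99% and 28.4% to 31.1%. Epha3, Epha4 and Ephb3 did not pass, but Epha4 was called lower with total-read scaling (limma adjusted p = 0.020). Ephb1 and Epha1 were under the filter, with 180 and 136 reads in all labelled-positive and 31 and 134 in all labelled-negative libraries, and 6.01% of the Epha1 exon bases lie opposite those of Zyx, a far more abundant gene.

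Of 4 pairs of guidance genes with 0 protein-coding genes between them, 1 had opposite calls (Efna1 and Efna3), 1 had the same call (Robo1 and Robo2, both lower) and 2 held a gene that was not called. Sema3d, Sema3a and Sema3e follow each other on chromosome 5, with 536.5 kb and no protein-coding gene between Sema3d and Sema3a. Sema3d was 7.68-fold lower, while Sema3a and Sema3e were 1.34-fold and 1.43-fold higher by mean RPKM, Sema3a without passing the test and Sema3e untested. Efna1, Efna3 and Efna4 lie within a single stretch of chromosome 3, with gaps of 32.8 kb and 10.4 kb. Efna1 rose, Efna3 fell and Efna4 was at 5.06 ± 0.380 RPKM in labelled-positive and 4.90 ± 0.292 RPKM in labelled-negative libraries, which did not pass (limma adjusted p = 0.66), and 10.51% of its exon bases lie opposite another gene. Sema3b and Sema3f lie 72.3 kb apart on chromosome 9 with 3 protein-coding genes between them, and there Sema3b rose and Sema3f fell. Sema7a and Neo1, 911.8 kb apart on the same chromosome with 14 genes between them, both rose.

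**Figure D4:**
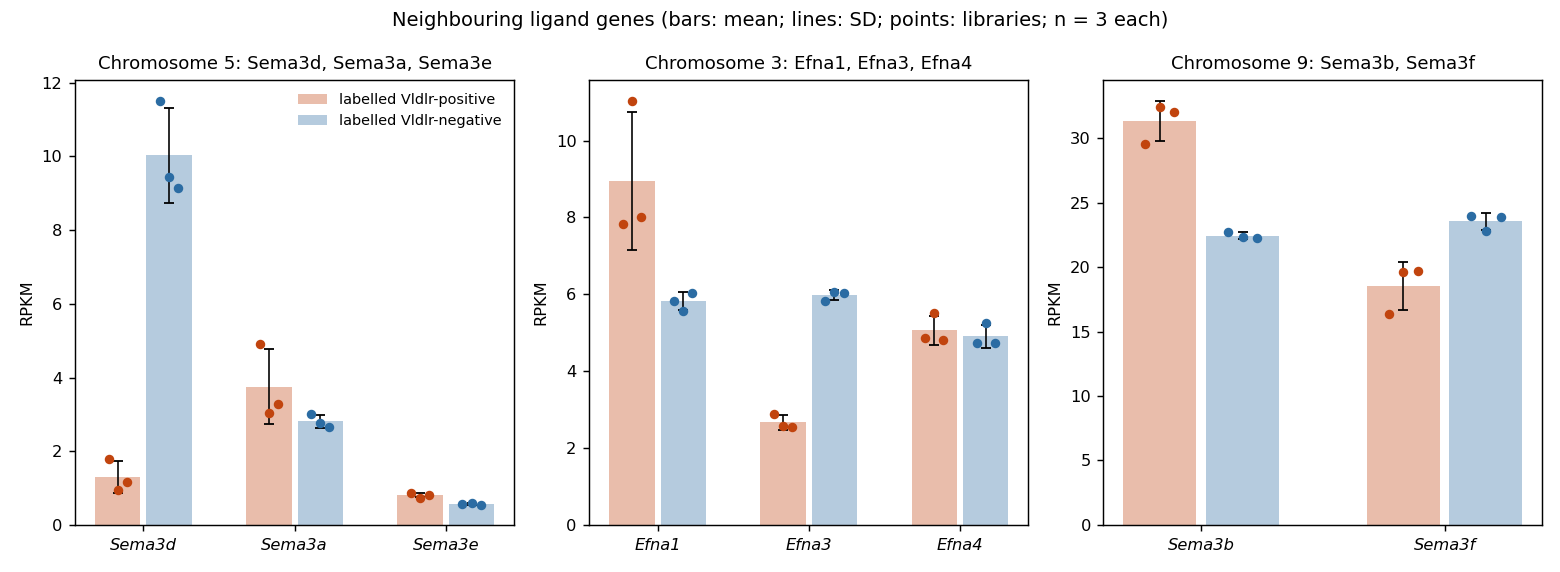
RPKM of neighbouring ligand genes on chromosomes 5, 3 and 9, with labelled-positive bars left of labelled-negative ones (bars are means, lines SD, points the 3 libraries of each group). These 3 stretches were picked because their genes differ: Sema3d, Efna3 and Sema3f are lower in the labelled-positive libraries and the genes drawn with them are not, whereas Robo1 and Robo2, both lower, are not drawn.

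Genes that take part in the signalling of these receptors, most of them inside the cell, were taken from a list of 58. Of these, 57 were in the table and 53 were tested. In the labelled-positive libraries 22 of them rose, 16 fell and 15 missed the threshold, beside 55.9% called over all tested genes (29.7% higher, 26.1% lower), and their median log2 fold change was 0.12, beside 0.02. Past a 1.5-fold change 5 rose and 1 fell, beside 9.43% of all tested genes. The genes L1cam, Ngef, Chn2 and Vav3 of the list passed the filter through a single group and so had to differ. Their calls, which these counts include, and their ranks below are no support. The 4 lowest adjusted p-values among those that rose belonged to L1cam, Dpysl3, Ngef and Mical2. L1cam, an adhesion molecule that partners neuropilin-1 and is also made by Schwann cells, was at 5.599 ± 0.312 RPKM in labelled-positive and 0.443 ± 0.0151 RPKM in labelled-negative libraries. Dpysl3, a collapsin response mediator, rose 3.85-fold to 26.6 ± 0.997 RPKM, and Mical2, an actin-oxidizing enzyme of a family that acts downstream of plexins, rose 2.99-fold to 7.34 ± 0.713 RPKM. Ngef, the exchange factor ephexin that acts downstream of EphA receptors, was at 2.28 ± 0.0860 RPKM in labelled-positive and 0.380 ± 0.0346 RPKM in labelled-negative libraries. The 4 lowest among those that fell belonged to Rnd3, Vav3, Trio and Srgap1. Srgap1, a GTPase-activating protein that binds Robo receptors, was at 2.63 ± 0.311 RPKM in labelled-positive and 4.67 ± 0.155 RPKM in labelled-negative libraries (limma log2 fold change -0.65, SE 0.07, adjusted p = 1.5e-04), and Srgap2 and Srgap3 were also lower (log2 fold changes -0.21 and -0.36). Trio, an exchange factor used by netrin receptors, was 1.89-fold lower and Rnd3 was 1.72-fold lower. Vav3, an exchange factor that acts downstream of Eph receptors, averaged 0.171 RPKM in labelled-positive and 1.34 RPKM in labelled-negative libraries. The count of list genes called lower, 16 with all libraries, was 9 or 10 without labelled-positive replicate 2 or 3 or labelled-negative replicate 1 or 2.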

How the data were processed

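The authors deposited RPKM values for 15711 genes in 6 libraries, without naming the unit, which follows from the whole reads described next. The build was mm10, and bcl2fastq 1.8.4 and Cell Ranger were listed as tools whose use is not stated, per the submitters' processing notes. The aligner, counting program, strand use and treatment of shared reads were not given in the sources used here. RPKM times the merged exon length of GENCODE M21 (GRCm38, the assembly of mm10) gave whole reads within 0.01 for 15690 of 15691 genes with a length, all 67 guidance genes included. Genes that reached 1 RPKM in 3 or more libraries were compared between groups with limma 3.58.1 (trend and robust; R 4.3.3, statmod 1.5.0) on log2(RPKM + 1), a scale that understates the change of low genes. The group was the only term, and p-values were adjusted by Benjamini-Hochberg over 12116 genes. Folds are ratios of mean RPKM; errors are SD over 3 libraries. The step was also run on simulated data with known changes, in which all libraries had the same spread and none stood apart. That run does not show how the step handles a library such as labelled-positive replicate 1.

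Members, lists and tests were chosen with earlier results of these data known. Values were printed for every called member past 1 on the log2 scale, up or down, without overlap, for the 3 of the highest mean in each family, and, chosen after their values were seen, for other members and for list genes outside the rule. From the signalling list the rule takes up to 4 called genes in each direction. Alternatives were pseudocount 0.1, no filter, filters at 5 RPKM or on the overall mean, total-read and median-ratio scaling, voom on the reads, a test against a 1.5-fold change, a replicate block, and leaving out each library.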

Additional observations from a re-analysis of the deposited data

How the results depend on the processing

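Of 356 values of the 24 guidance genes named by rule, 337 kept their direction and side of the threshold, 14 were no longer called, 1 was newly called and 4 changed sign. The 24 include Plxnb3 and Sema4f, which passed the filter through a single group and so had to differ. Their values, all counted as kept, are no support. The sign changes were Plxnb2 with total-read scaling (-0.10) and Slit3 with total-read scaling (-0.18), without labelled-positive replicate 1 (-0.02) and without labelled-negative replicate 3 (-0.0758); over all left-out libraries Slit3 ran from -0.0758 to 0.0765. With total-read scaling 1890 genes rose and 5482 fell, against 3602 and 3167. The 1.5-fold test left 537 rises and 606 falls over all genes, 7 and 6 among guidance genes and 5 and 1 in the signalling list. The 5 RPKM filter left 35 guidance genes to test, of which 14 rose and 16 fell. Over all genes it left 7342, of which 2726 rose and 1800 fell. Leaving out a library gave 19 to 24 rises and 17 to 19 falls among guidance genes, 19 to 23 and 9 to 19 in the signalling list, and 2830 to 4103 and 2415 to 3754 over all genes. Whether the replicate numbers pair the samples is not known, and 3 libraries a group cannot settle it. Deviations of equal numbers correlated at 0.303, -0.0611 and 0.307, and labelled-positive replicate 2 correlated best with labelled-negative replicate 3 (0.265). With the numbers as a replicate block, 24 guidance genes rose and 19 fell, Rgma and Sema3a being added, 23 and 16 in the signalling list, and 3738 and 3315 over all genes. Strand use and shared reads limit overlapping genes, and 3 libraries a group limit small differences.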

Other observations

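Among the 18 guidance genes that fell, labelled-positive replicate 1 had the highest of the 3 labelled-positive values for 14 and the lowest for 3. Among the 23 that rose it had the lowest for 11 and the highest for 7, and among the 14 not called the highest for 5 and the lowest for 7. The same counts were not made over all tested genes, where this library also stood apart, so they show nothing particular to guidance genes. Mitochondrial genes took 1.95% of the reads in that library, 1.64% and 1.59% in the other labelled-positive libraries and 2.58% to 2.92% in the labelled-negative ones.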
